A study of Mus musculus with 2 samples.

Results

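The receptors for neurotransmitters and purines were 70 protein-coding genes of the mouse, taken by gene symbol from every gene measured in both libraries. They comprised the receptors for serotonin, acetylcholine, noradrenaline and adrenaline, dopamine, extracellular nucleotides, tachykinins and opioids, out of 21474 protein-coding genes. The tissue was whole intestine of healthy B6NCrl embryos at embryonic day 16.5, profiled by sequencing of total RNA over 200 nt. There was 1 group of 2 libraries, replicate 1 and replicate 2, each prepared from 10 ng of RNA of a pool of male and female embryos with no genetic change or treatment named. Replicate 2 pooled 41 embryos, and the number behind replicate 1 was not given in the sources used here. Both pools carry the same donor identifier but are separate biosamples, so the spread between them is that of pools and library preparation, not of single embryos. Levels are given in TPM, a length-corrected share of a library's RNA, and a gene was called detected when it reached a TPM of at least 1 in both libraries.

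These receptors let cells of the gut wall read signals from nerves, endocrine cells and damaged or stretched neighbours. One class is built of ion channel subunits that open when acetylcholine, serotonin or ATP binds, and the other class signals through G proteins, which raise calcium (Gq), lower cyclic AMP (Gi) or raise it (Gs). In the adult gut, acetylcholine from enteric neurons drives muscle contraction, ATP and related nucleotides relax it, and serotonin from enteroendocrine cells stimulates nerve endings.

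The libraries held 41279206 and 40758084 expected counts on genes, of which the 70 receptors took 10958 counts (0.0266%) and 11329 counts (0.0278%). Markers of the labelled tissue were present: 8 of 8 genes of intestinal epithelium, 6 of 6 of smooth muscle and 8 of 8 of enteric neurons were detected. Markers of other organs were also present, with 5 of 5 pancreatic acinar genes detected at summed levels of 4401 and 5733 TPM and 5 of 5 liver genes at 471.9 and 313.4 TPM in replicates 1 and 2. All 6 genes of an adrenal list were higher in replicate 1, at a summed 30.8 TPM against 8.87 TPM in replicate 2. Of these 6 genes, 2 were detected. All 6 enterocyte genes were higher in replicate 2. The tables were not copies of 1 library: over 18089 genes the chi-square of the counts between them had a mean of 20.6 and a median of 2.50 per gene.

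Of the 70 receptors, 22 (31.4%) were detected, against 62% of all protein-coding genes. Another 43 had some counts without being detected, and 5 had no count in either library. The median receptor lay at 0.318 TPM, against 4.47 TPM for the median protein-coding gene, and 5.71% of receptors reached 10 TPM in both libraries, against 38.4% of protein-coding genes. The summed level of all receptors was 158.6 TPM in replicate 1 and 167.2 TPM in replicate 2. This total was uneven: the single gene P2rx4 made up 31.9% of it, the highest 4 genes 55.9% and the 22 detected genes 92.4%. In RNA from whole tissue, a low level can mean few cells of a type or little RNA per cell, and these cannot be told apart.

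**Figure D1:**
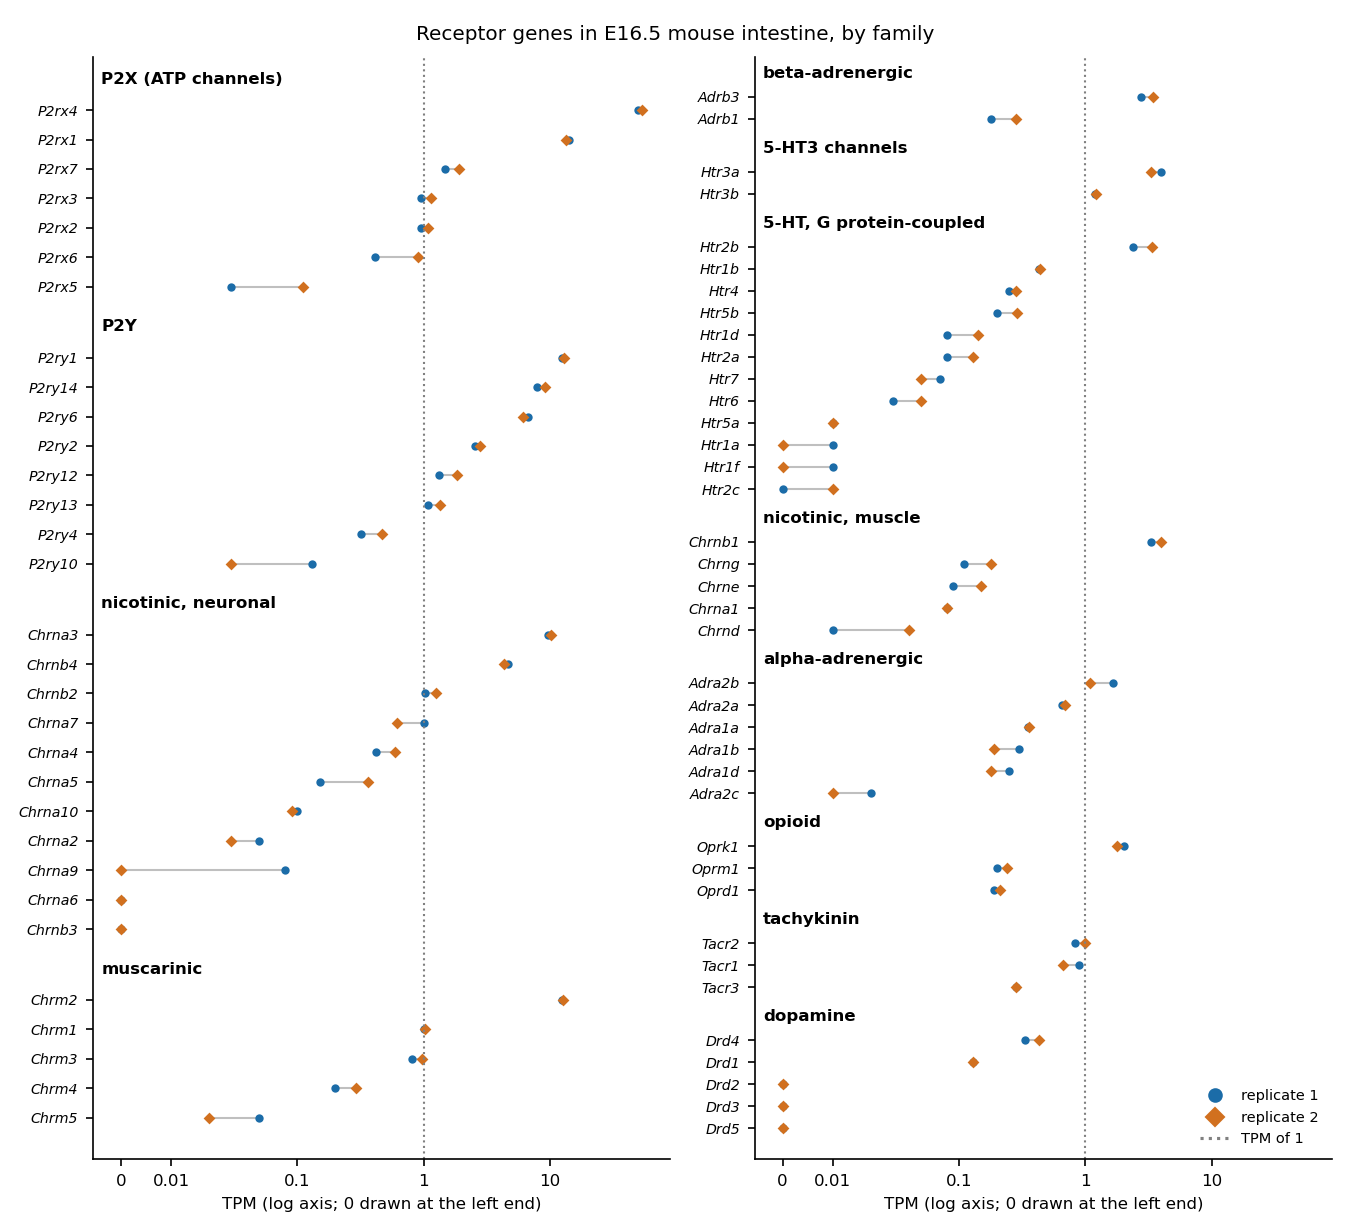
TPM of the receptor genes in replicate 1 (circles) and replicate 2 (diamonds) on a log axis, grouped by family, with the TPM of 1 dotted. P2rx4 stands alone at 49.8 and 54.1 TPM, and most genes lie left of the dotted line.

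Purine receptors took the largest part of the total. The 7 P2X genes, subunits of cation channels opened by extracellular ATP, summed to 70.2 ± 3.47 TPM (SD, n = 2), 43.1% of all receptor TPM, and 3 of 7 were detected. P2rx4, a subunit known from epithelium, endothelium and macrophages, had 49.78 TPM (2172 counts) in replicate 1 and 54.09 TPM (2438 counts) in replicate 2. It was 3.77-fold above the second gene in the order, and its level exceeded that of 85.6% of protein-coding genes. P2rx1, the P2X subunit known from smooth muscle and platelets, had 14.13 and 13.42 TPM, and P2rx7, known from immune cells, had 1.48 and 1.89 TPM. P2rx4 exceeded P2rx7, its neighbour on chromosome 5, by 4.87 ± 0.15 on the log2 scale (SD, n = 2), a 29.3-fold ratio with intervals that did not overlap in either library; in counts without length it was 13.8-fold. P2rx3 and P2rx2, which form the ATP channels of sensory and enteric neurons, straddled the threshold. P2rx3 had 0.95 and 1.15 TPM, and P2rx2 had 0.95 and 1.08 TPM. P2rx6 lay at 0.41 and 0.90 TPM and P2rx5 at 0.03 and 0.11 TPM.

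The promoter of P2rx4, the highest receptor gene, is shown from RefSeq (GRCm38.p6, plus strand, chr5:122707294-122707593), 250 bases before to 50 after the start site, 5′ to 3′. Capitals mark a GC box, which begins 19 bases after the start site.
P2rx4: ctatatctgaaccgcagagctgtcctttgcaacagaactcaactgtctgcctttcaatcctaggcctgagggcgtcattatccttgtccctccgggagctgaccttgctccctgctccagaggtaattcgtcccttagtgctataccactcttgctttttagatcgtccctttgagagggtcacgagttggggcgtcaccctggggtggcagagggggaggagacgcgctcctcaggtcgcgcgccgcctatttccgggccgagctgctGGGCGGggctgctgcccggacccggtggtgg
The window had 60.3% G and C, and its ratio of observed to expected CpG dinucleotides was 0.659.

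In the deposited estimates, the P2rx1 level rested mostly on a transcript not annotated as coding. P2rx1-203, a retained-intron transcript of 6 exons at chr11:73009791-73015197 (mm10), held 12.63 TPM (633.8 counts) in replicate 1 and 11.58 TPM (564.3 counts) in replicate 2, a mean share of 87.8%. The coding transcript P2rx1-201, of 12 exons at chr11:72999103-73015200, held 1.5 TPM (105.2 counts) and 1.84 TPM (125.7 counts). Of the 1805 exonic bases of P2rx1-203, 1666 are also exonic in P2rx1-201 and 139 are not, so the transcripts differ by these bases and by the exons of P2rx1-201 further 5′. The division of counts between these transcripts is therefore an uncertain estimate, and it was not tested against the reads. The values for coding transcripts that follow depend on it. With coding transcripts alone, P2rx1 lay at 1.67 ± 0.24 TPM (SD, n = 2) and at place 15 in the order instead of the second, and the P2X share of all receptor TPM was 36.3%.

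P2rx4 itself was divided among several transcripts. The coding transcript P2rx4-202 held 49.3% and 50.4% of the gene, coding P2rx4-206 held 19.1% and 26%, and coding P2rx4-201 held 13.5% and 15.1%. A short processed transcript, P2rx4-205, held 8.34 TPM in replicate 1 and 3.67 TPM in replicate 2, so the coding share was 81.9% and 91.6%. Transcript shares were compared in the 16 receptor genes with several annotated transcripts that averaged 1 TPM or more. In all 16 both libraries had the same leading transcript by TPM, but by posterior mean TPM this held in 14. The leading transcript by TPM was non-coding only in P2rx1. In Chrm2, 89.6% of the TPM lay on the coding Chrm2-202. Chrnb1 had 76.6% on coding Chrnb1-201 and 18.2% on a retained-intron transcript, and Oprk1 had 22.7% on the retained-intron Oprk1-205. The coding transcripts of Htr2b were the least steady, with Htr2b-201 at 71.7% in replicate 1 and 51.2% in replicate 2. Counting coding transcripts only, 22 receptors still reached a TPM of 1 in both libraries.

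**Figure D2:**
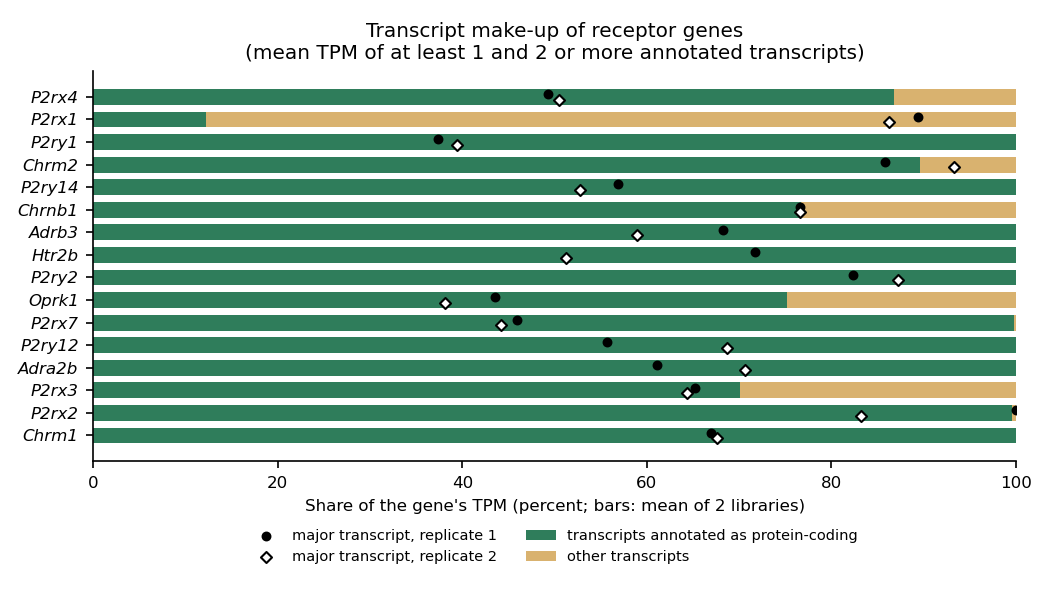
Percent of each gene's TPM on protein-coding transcripts (green) and on other transcripts (tan), as means of 2 libraries, with the major transcript's share in replicate 1 (circles) and replicate 2 (diamonds). P2rx1 is mostly tan, with its major, non-coding transcript at 89.4% and 86.3%.

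The P2Y receptors, which couple nucleotides to G proteins, had the largest number of detected genes of any family, 6 of 8, and summed to 33.7 ± 1.51 TPM (SD, n = 2), 20.7% of the total. P2ry1, a Gq-coupled ADP receptor known for inhibitory transmission to gut muscle and for platelet activation, had 12.58 TPM in replicate 1 and 12.98 TPM in replicate 2. P2ry14, a Gi-coupled receptor for UDP-sugars, had 7.96 and 9.10 TPM, and P2ry6, a Gq-coupled UDP receptor, had 6.69 and 6.17 TPM. P2ry2, which binds ATP and UTP, was lower at 2.55 and 2.82 TPM. P2ry1 exceeded P2ry2 by 2.21 ± 0.07 on the log2 scale (SD, n = 2), and P2ry6 exceeded P2ry2 by 1.23 ± 0.18, both with intervals apart in each library. The Gi-coupled ADP receptors P2ry12, at 1.32 and 1.85 TPM, and P2ry13, at 1.09 and 1.36 TPM, were not apart from each other, with a log2 difference of 0.34 ± 0.12. Of this gene cluster on chromosome 3, P2ry14 alone was high, exceeding P2ry12 5.18-fold. The UTP receptor P2ry4 had 0.32 and 0.47 TPM, and P2ry10, whose known ligands are lysophospholipids, had 0.13 and 0.03 TPM.

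Purine receptors are also found on blood cells, whose markers were in both libraries. All 6 macrophage genes were detected, at a summed 156 TPM in replicate 1 and 161.2 TPM in replicate 2, led by C1qb at 65.2 and 66.2 TPM. All 4 platelet and megakaryocyte genes were detected, at 45.3 and 45.8 TPM, most of it Pf4 at 38.9 and 40.3 TPM. Of 4 mast cell genes 2 were detected, and Fcer1a was near 0 at 0.08 and 0.12 TPM. The part of these cells in the purine receptor levels was not tested.

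**Figure D3:**
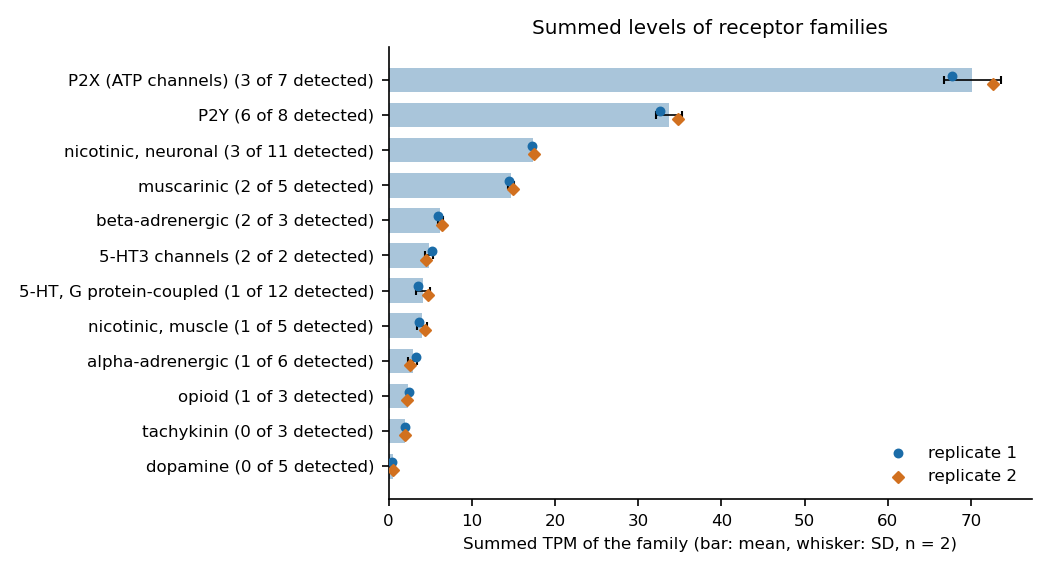
Summed TPM of each receptor family, as the mean (bar) with SD (whisker) over 2 libraries and the value of replicate 1 (circles) and replicate 2 (diamonds). The P2X bar reaches 70.2 TPM and the P2Y bar 33.7 TPM. Relative to the mean, the libraries differ most in the G protein-coupled serotonin receptors, at 3.57 and 4.78 TPM. They differ little in the tachykinin receptors, also of low sum, at 2 and 1.94 TPM.

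Receptors for acetylcholine came next. In TPM the neuronal nicotinic genes summed above the muscarinic ones, at 10.7% and 9.04% of the total, but in counts without length the order turned, at 14.6% and 18.4%. Among the 5 muscarinic genes, whose products are G protein-coupled, Chrm2 dominated with 85.2% of a family sum of 14.7 ± 0.34 TPM (SD, n = 2). Chrm2, the Gi-coupled receptor abundant on smooth muscle, had 12.42 TPM (1780 counts) in replicate 1 and 12.66 TPM (1897 counts) in replicate 2. Chrm3, the Gq-coupled receptor that triggers contraction in adult gut, was not detected at 0.81 and 0.97 TPM. The ratio of Chrm2 to Chrm3 was 12.8-fold, or 3.68 ± 0.15 on the log2 scale (SD, n = 2), and 29.7-fold in counts without length. Coding transcripts held only 50.6% of Chrm3 in replicate 1 and 44.3% in replicate 2, at 0.41 and 0.43 TPM. Those of Chrm2 held 10.66 and 11.82 TPM. Chrm1, known from neurons, lay on the threshold at 1.00 and 1.02 TPM and was not apart from Chrm3. Chrm4 had 0.20 and 0.29 TPM, and Chrm5 was at or below 3 counts in both libraries.

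Nicotinic subunits of the neuronal type summed to 17.4 ± 0.14 TPM (SD, n = 2), and 3 of 11 were detected. Chrna3 and Chrnb4, which together form the ganglionic receptor of autonomic neurons, led with 9.72 and 10.19 TPM for Chrna3 and 4.70 and 4.34 TPM for Chrnb4. Chrnb2, a partner subunit best known from brain, had 1.03 and 1.25 TPM, and Chrnb4 exceeded it 3.74-fold. Chrna7, which forms channels by itself, had 1.01 TPM in replicate 1 and 0.61 TPM in replicate 2, and Chrna4, the main partner of Chrnb2 in brain, had 0.42 and 0.59 TPM. Chrna3 exceeded Chrna7 by 3.50 ± 0.50 and Chrna4 by 4.07 ± 0.24 on the log2 scale (SD, n = 2). The first of these ratios, 11.3-fold, was 17.7-fold in counts without length. No count was found for Chrna6 or Chrnb3, where 3 counts, the limit that a count of 0 allows, would be 0.0364 and 0.0228 TPM in replicate 1.

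Chrna5, Chrna3 and Chrnb4 lie side by side on chromosome 9. The gap is 2331 bases between Chrna5 and Chrna3, which run in opposite directions, and 1591 bases between Chrna3 and Chrnb4, which run in the same direction. Their levels differed in spite of this spacing: Chrna5, an accessory subunit, had 0.15 TPM (12 counts) and 0.36 TPM (27 counts), and the mean of Chrna3 was 39.0-fold above that of Chrna5 and 2.20-fold above that of Chrnb4. Their RefSeq promoters, together with that of Chrm2, the leading G protein-coupled acetylcholine receptor, are printed to show the sequence at genes of unequal level (GRCm38.p6, 250 bases before to 50 after the start site, 5′ to 3′ on the gene's strand). Capitals mark matches to the TATA box, the CCAAT box, the GC box and the CArG box, while matches to the E-box are left in lower case.
Chrna3 (chr9:55026513-55026812, minus strand): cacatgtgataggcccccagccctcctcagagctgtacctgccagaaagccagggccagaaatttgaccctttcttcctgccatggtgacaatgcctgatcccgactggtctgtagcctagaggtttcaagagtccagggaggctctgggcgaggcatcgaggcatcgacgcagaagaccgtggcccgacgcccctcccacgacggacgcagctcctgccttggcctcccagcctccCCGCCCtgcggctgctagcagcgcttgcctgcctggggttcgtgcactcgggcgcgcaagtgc
Chrnb4 (chr9:55048495-55048794, minus strand): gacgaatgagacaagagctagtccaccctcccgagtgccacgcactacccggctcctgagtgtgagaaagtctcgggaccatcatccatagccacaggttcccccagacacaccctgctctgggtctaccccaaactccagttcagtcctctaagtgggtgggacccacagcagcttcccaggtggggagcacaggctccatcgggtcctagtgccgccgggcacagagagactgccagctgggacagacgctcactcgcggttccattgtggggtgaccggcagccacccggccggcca
Chrna5 (chr9:54980630-54980929, plus strand): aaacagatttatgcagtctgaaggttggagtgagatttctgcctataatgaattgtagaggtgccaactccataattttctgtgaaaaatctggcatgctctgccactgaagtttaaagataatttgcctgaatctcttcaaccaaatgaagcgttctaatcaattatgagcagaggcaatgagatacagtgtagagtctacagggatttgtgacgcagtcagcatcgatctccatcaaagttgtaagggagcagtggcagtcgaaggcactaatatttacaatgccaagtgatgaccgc
Chrm2 (chr6:36387834-36388133, plus strand): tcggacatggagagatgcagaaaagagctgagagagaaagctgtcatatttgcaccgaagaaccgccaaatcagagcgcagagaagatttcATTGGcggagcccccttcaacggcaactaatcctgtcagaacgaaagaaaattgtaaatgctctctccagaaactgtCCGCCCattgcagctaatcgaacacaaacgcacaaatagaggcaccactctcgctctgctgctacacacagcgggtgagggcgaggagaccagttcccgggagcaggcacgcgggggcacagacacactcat
The Chrna3 window holds a GC box beginning 13 bases before the start site, and the Chrm2 window holds a CCAAT box beginning 159 bases before it and a GC box beginning 82 bases before it, all 3 on the opposite strand. None of the motifs capitalised here was found in the Chrnb4 or Chrna5 windows. The G and C content was 64.3% for Chrna3, 63% for Chrnb4, 41.3% for Chrna5 and 52.7% for Chrm2.

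Motifs were searched on both strands of the RefSeq promoters of 53 receptors, which included 16 of the 22 detected genes. The GC box (letters GGGCGG) was in 50.9% of them, against 35.7% of all RefSeq promoters of this length and 48.4% of the first promoters of protein-coding genes. The CCAAT box (letters CCAAT) was in 30.2%, against 37.4% of all promoters and 38.6% of these first promoters. The TATA box (letters TATAAA) was in 9.43%, against 13.6% of all and 12.6% of first promoters. A CArG box was in 1 of 53 promoters, against 1.63% of all and 1.55% of first promoters. An E-box (letters CANNTG) was in 62.3%, against 72.3% of all and 68.4% of first promoters. Overlaps between motifs were kept. Taking the first promoter of each gene, the median CpG ratio was 0.494 in detected and 0.363 in undetected receptors, whereas in all protein-coding genes it was 0.751 in detected and 0.215 in undetected ones. A match of letters describes a window and says nothing about binding there.

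Nicotinic subunits of the muscle type did not form a complete set. Chrnb1, the beta subunit of the muscle receptor, was detected at 3.33 TPM in replicate 1 and 3.97 TPM in replicate 2. Its partners were low: Chrna1 had 0.08 TPM in both libraries, the fetal subunit Chrng had 0.11 and 0.18 TPM, the adult subunit Chrne had 0.09 and 0.15 TPM, and Chrnd had 0.01 and 0.04 TPM. Chrng and Chrne were not apart, on 6 and 6 counts for Chrng and 2 and 3 counts for Chrne. Of 7 skeletal muscle markers 4 were detected, and all 7 summed to 37.2 TPM in replicate 1 and 41 TPM in replicate 2, with Myod1 at 0.04 and 0.10 TPM. Their part in the Chrnb1 level was not tested.

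Serotonin receptors were mostly undetected apart from the channel subunits and Htr2b. Both channel genes were detected, Htr3a at 3.99 TPM in replicate 1 and 3.30 TPM in replicate 2, and Htr3b, which joins Htr3a in mixed channels, at 1.19 and 1.21 TPM. Their ratio was 2.87-fold, or 1.52 ± 0.20 on the log2 scale (SD, n = 2). Of 12 G protein-coupled serotonin receptors 1 was detected. Htr2b, a Gq-coupled receptor, had 2.40 TPM (108.7 counts) and 3.38 TPM (117.7 counts), and exceeded its relative Htr2a 14.5-fold, or 9.04-fold in counts without length. Htr4, the Gs-coupled receptor targeted by drugs that speed gut transit, had 0.25 and 0.28 TPM, and Htr1b had 0.43 and 0.44 TPM. Htr6, Htr5a, Htr1a, Htr1f and Htr2c were each at 3 counts or fewer in both libraries.

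The Htr2b value has a limit of its own. The gene lies inside Psmd1, a proteasome subunit gene on the opposite strand with 124.1 and 115.7 TPM, and 252 of its exonic bases (11.8%) are also exonic in Psmd1. In all, 15 receptors share exonic bases with another gene, 8 of them detected, and strand-specific preparation was not given in the sources used here. P2rx3 shares 51 bases with Ssrp1, at 208.9 and 180.1 TPM. P2rx6 shares 554 bases (13.9%) with Slc7a4, at 28.3 and 28.7 TPM, and Chrnb2 shares 1365 bases (16.3%) with Adar, at 7.52 and 8.94 TPM. Adrb3 shares 839 bases (24.85%) with the antisense gene Gm45470, for which neither library had a value. Among the leading receptors, Chrm2 shares 142 bases (2.35%) with the non-coding gene 9330158H04Rik, at 9.57 and 10.44 TPM, and P2ry1 shares 992 bases (23.1%) with the antisense gene Gm37035, at 0.91 and 1.21 TPM. How far reads of these partners entered the receptor values was not tested.

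Adrenergic receptors, which answer noradrenaline and adrenaline, were led by the beta class. Adrb3, the Gs-coupled receptor known from fat and smooth muscle, had 2.74 TPM in replicate 1 and 3.43 TPM in replicate 2. Adrb1, the main cardiac receptor, had 0.18 and 0.28 TPM, and was exceeded 9.71-fold by Adrb3. Of the 6 alpha receptors 1 was detected, the Gi-coupled Adra2b, at 1.67 TPM (190 counts) in replicate 1 and 1.09 TPM (120 counts) in replicate 2. Adra2a had 0.65 and 0.69 TPM and was not apart from Adra2b, the difference of -0.91 ± 0.46 on the log2 scale (SD, n = 2) being under 3 SD. Adra1a, the highest of the Gq-coupled alpha class, had 0.35 and 0.36 TPM.

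Receptors for peptides and dopamine were lower still. Oprk1, the dynorphin receptor, was the detected one of 3 opioid receptors, at 2.01 TPM in replicate 1 and 1.77 TPM in replicate 2. Oprm1, the main target of morphine, had 0.20 and 0.24 TPM on 13 and 15 counts, and Oprd1, an enkephalin receptor, had 0.19 and 0.21 TPM. The deposited interval of Oprm1, 0.844 to 2.16 TPM in replicate 1, did not contain its own TPM; this was so for 11 receptors, none of them detected. No tachykinin receptor was detected: Tacr2, the neurokinin A receptor, had 0.83 and 0.99 TPM, Tacr1, the substance P receptor, had 0.89 and 0.67 TPM, and Tacr3 had 0.28 TPM in both. Of 5 dopamine receptors none was detected. Drd4 was the highest at 0.33 and 0.43 TPM, Drd1 had 0.13 TPM in both, and Drd2, Drd3 and Drd5 had no count, where 3 counts would be 0.0703, 0.0752 and 0.0377 TPM in replicate 1.

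By mode of signalling, a grouping written after the values were seen, the 25 channel subunits held 59.2% of receptor TPM with 9 detected. Among the 45 G protein-coupled receptors 13 were detected. The Gq-coupled genes held 18.4%, the Gi-coupled genes 18.2% and the Gs-coupled genes 4.10%. The G protein alpha subunits that carry these signals were more abundant as a sum, and 9 of 10 were detected. They summed to 1052 TPM in replicate 1 and 1412 TPM in replicate 2, against 158.6 and 167.2 TPM for all receptors. The list was uneven. Gnaq had 22.8 and 22.3 TPM. Gna14 had 11.65 and 10.66 TPM, Gnao1 8.42 and 8.37 TPM, Gnaz 2.49 and 1.84 TPM and Gna15 1.29 and 0.95 TPM, each below P2ry1. The Gq-class subunit Gna11 had 252.7 TPM in replicate 1 and 289.2 TPM in replicate 2, Gnai2 had 257 and 264.7 TPM, and Gnas, the Gs subunit, had 337.4 and 655.7 TPM. All 9 listed receptor kinases, arrestins and RGS regulators were detected, led by Rgs2 at 42.4 and 39.8 TPM.

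Over 6 lists of genes that mostly make, move or destroy the transmitters or encode their precursors, 31 of 39 (79.5%) were detected. This stands beside 31.4% of the receptors and 62% of all protein-coding genes, and these shares were not tested against each other. The acetylcholine list also held Ric3, Tmem35a and Lynx1, which act on nicotinic receptors and not on the transmitter, each of them detected. For acetylcholine 7 of 8 were detected, including the vesicular transporter Slc18a3 at 7.33 TPM in replicate 1 and 6.37 TPM in replicate 2 and the esterase Ache at 7.67 and 7.96 TPM. The synthetic enzyme Chat was the exception at 0.83 and 0.72 TPM. For serotonin 7 of 8 were detected, with the gut enzyme Tph1 at 2.22 and 2.18 TPM, the uptake transporter Slc6a4 at 20.8 and 24 TPM and the oxidase Maob at 165.3 and 223.4 TPM, whereas the neuronal enzyme Tph2 had a single count in replicate 2 and none in replicate 1.

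The catecholamine list was the sparsest, with 2 of 6 detected, among them Th, the first enzyme of synthesis, at 2.81 TPM in replicate 1 and 1.78 TPM in replicate 2. Dbh, which makes noradrenaline, had 1.18 and 0.88 TPM. Th, Dbh and Pnmt are on the adrenal marker list as well, so the catecholamine and adrenal values are partly the same genes. The highest precursors of opioid and tachykinin peptides lay above all of their receptors. Penk, the enkephalin precursor, had 28.3 and 29.2 TPM, and Tac1, the precursor of substance P, had 13 and 16.6 TPM. Pdyn, the dynorphin precursor, went the other way. It was not detected, at 0.79 and 0.99 TPM, and lay below the dynorphin receptor Oprk1, at 2.01 and 1.77 TPM. All 10 genes of purine release and breakdown were detected, with the ectonucleotidase Entpd2 at 20.2 and 23.4 TPM and the ATP release channel Panx1 at 15.9 and 15.5 TPM. Of the adenosine receptors, which sense the end product of ATP breakdown, 3 of 4 were detected, with Adora2b at 8.31 and 11.97 TPM and Adora1 at 5.78 and 7.02 TPM.

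**Figure D4:**
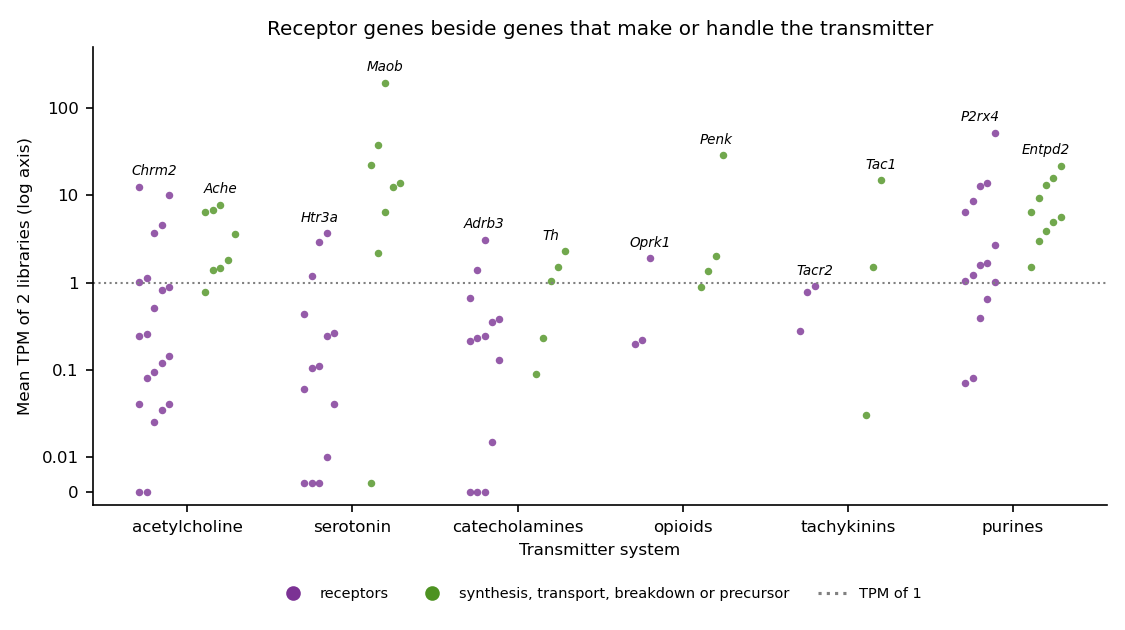
Mean TPM over 2 libraries on a log axis for the receptors of each transmitter system (purple, left) and for the genes that make, handle or encode the transmitter (green, right), with the highest gene plotted in each named and the TPM of 1 dotted. Tachykinin receptors all lie under 1 TPM, while Tac1 lies at 14.8 TPM. The acetylcholine list also holds Ric3, Tmem35a and Lynx1, which act on nicotinic receptors.

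In the order of levels, 8 of the 20 neighbouring pairs among detected receptors had ranges that did not overlap. P2rx4, P2rx1 and then P2ry1 with Chrm2, which overlapped, formed the top, followed by Chrna3, P2ry14, P2ry6 and Chrnb4, each separate from the next. From Chrnb1 down to P2ry2 the neighbours overlapped, P2ry2 was separate from Oprk1, and from Oprk1 to Chrnb2 they overlapped again. Of 26 pairs of related receptors, 16 were apart, meaning the same direction in both libraries, a mean log2 ratio over 3 SD and deposited intervals that did not overlap. These ratios used a pseudocount of 0.1 TPM, which understates the ratios of low genes, and are given without a p-value: an exact sign-flip permutation over 2 libraries, two-sided, cannot go below p = 0.5.

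Between the pools, of the 20 receptors with a mean count of at least 100, none differed 2-fold with intervals apart, against 0.807% of 12885 protein-coding genes, and 1 had intervals apart at any size, against 26.3%. With so few receptors and so low a share over all genes, the absence of a 2-fold difference is no result about the receptors. Whether intervals lie apart depends on a gene's counts, for which the receptors and all genes were not matched. The share with intervals apart is therefore no result about the receptors either. The gene with intervals apart was Adra2b, higher in replicate 1 by 0.57 on the log2 scale, and at the other end Htr2b was lower in replicate 1, at -0.48. The median size of the log2 difference was 0.18 over the receptors and 0.12 over all protein-coding genes with this count. Beside the Adra2b difference, adrenal, liver, erythroid and enteric neuron markers were higher in replicate 1 in 6 of 6, 5 of 5, 5 of 5 and 7 of 8 genes. The Htr2b intervals overlapped, and its counts were 108.7 in replicate 1 and 117.7 in replicate 2. Its transcript Htr2b-201 had 1.72 and 1.73 TPM, while Htr2b-202 had 0.68 and 1.65 TPM. Enterocyte, pancreatic acinar and mesothelium markers were higher in replicate 2 in 6 of 6, 5 of 5 and 4 of 4 genes. The part of these markers' cells in the Adra2b and Htr2b values was not tested.

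**Figure D5:**
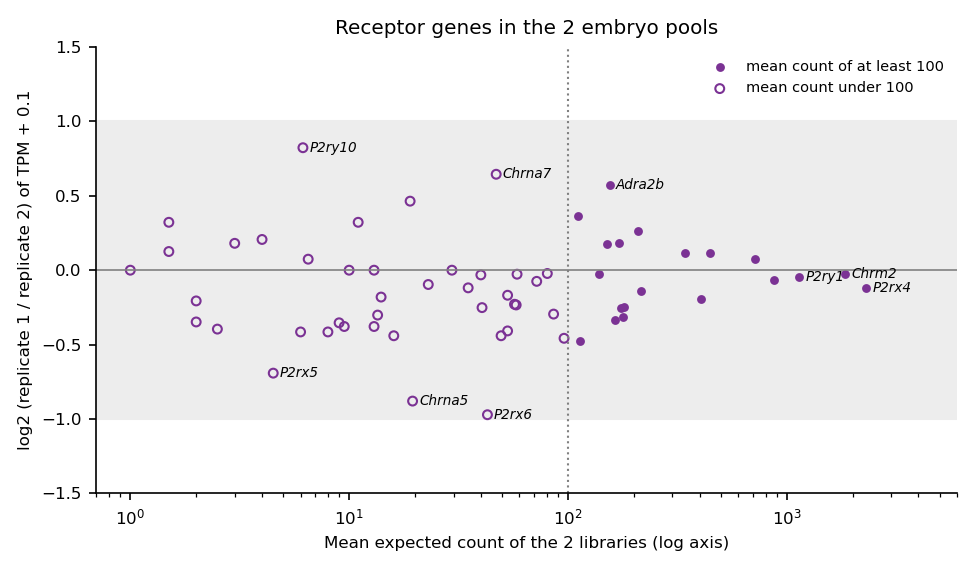
Log2 ratio of TPM plus 0.1 in replicate 1 over replicate 2 against the mean expected count of the libraries (log axis), for receptors with a mean count of at least 1; filled points have a mean count of at least 100 and the grey band marks differences under 2-fold. All filled points lie between -0.48 and 0.57, and open points spread wider.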

How the data were processed

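Per the file headers and labels, the authors assigned reads to GENCODE M4 on mm10; the aligner and quantifier were not given in the sources used here. Expected counts, deposited per feature, are estimated and not normalised. The deposited TPM corrects for length and scales to 1000000, and deposited FPKM scales by length and reads. The deposited interval bounds, a TPM signal range, have no stated level. Deposited percent values of transcripts were set beside the shares used here, which were computed from TPM. Symbols, types and coordinates came from GENCODE M21 (42462 of 43346 identifiers, 98.0%); 26248 features naming no gene, with 0.000147% and 0.000158% of counts, were left out. Members and lists were chosen with earlier results of these data known. All members are accounted for by family; detected members and the highest of each family have full values. Mean and SD over 2 libraries were computed with pandas 2.3.3 and numpy 2.4.6 in Python 3.11.15, and figures with matplotlib 3.10.9. With 1 group there was no test. Floors cover counting error only. Intervals are given for each library alone, so they leave out the spread between pools, and what they cover was not given in the sources used here. Promoters came from RefSeq (GRCm38.p6). Alternatives were other minimums, FPKM, posterior means, counts without length, coding transcripts only and each library left out. A few genes of these lists are counted but not reported by name here.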

Additional observations from a re-analysis of the deposited data

How the results depend on the processing

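The count of 22 detected receptors (31.4%, against 62% of protein-coding genes) was 14 (20%, against 56.9%) at a TPM minimum of 2, 7 (10%, against 47.7%) at a minimum of 5 and 45 (64.3%, against 71.1%) at 10 or more expected counts in both libraries. It stayed within 1.5 times under the other settings, from 16 by FPKM to 29 at a minimum of 0.5, and was 23 to 24 with a library left out. The P2X share of 43.1% was 42.3% with posterior mean TPM, 29.8% in scaled counts without length, 44.8% over detected members only and 36.3% over transcripts annotated as protein-coding, a setting chosen after seeing the data; with a library left out it was 42.7% to 43.5%. By construction the counts without length favour long genes. In them the muscarinic share was 18.4% in place of 9.04% and passed the neuronal nicotinic share, 14.6% in place of 10.7%. All 16 pairs that were apart kept their direction there, and 5 ratios moved over 1.5 times: 29.7-fold in place of 12.8-fold for Chrm2 over Chrm3, 17.7-fold in place of 11.3-fold for Chrna3 over Chrna7, 9.04-fold in place of 14.5-fold for Htr2b over Htr2a, 13.8-fold in place of 29.3-fold for P2rx4 over P2rx7, and that of Htr1b over Htr1a, which rests on a single count of Htr1a. With posterior means 0 of the 16 moved that far. The ratio of Oprd1 to Oprm1, not apart in TPM at -0.09 on the log2 scale, was 0.58 in scaled counts. In posterior mean TPM this ratio was -2.37. That of Oprm1 to Oprk1, also not apart, was -2.64 in TPM and -0.31 in posterior means. The posterior mean of Oprm1 was 1.44 TPM in replicate 1 and 1.56 TPM in replicate 2, above the minimum of 1. The cause of these changes was not tested. No paired analysis was possible because the labels name 1 group only. Members under 10 counts are limited by depth.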
